A study of Homo sapiens with 6 samples.

Results

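The T-cell acute lymphoblastic leukaemia (T-ALL) line KOPT-K1 was compared with the other 5 T-ALL lines of the series by where each line had an ATAC-seq peak interval. Intervals of all 6 lists on chromosomes 1 to 22 and X were merged into 40110 regions wherever they overlapped by at least 1 bp. A KOPT-K1-only region held an interval of KOPT-K1 and of no other line, and 1498 regions met this rule. A missed region held intervals of all other 5 lines and none of KOPT-K1, and 277 regions met this rule. The 1775 members were thus chosen by the calls themselves, and their counts are a description. The comparison lines were TALL-1, MOLT-4, HBP-ALL, DND-41 and CCRF-CEM. All are established human lines, grown in RPMI-1640 medium with serum and antibiotics, and no treatment other than the tagmentation itself is named. Each line has 1 library, and that of KOPT-K1 is titled KOPTK-7 but labelled KOPT-K1 as its cell line. No replicate error exists, so that a difference between lines cannot be told apart from a difference between preparations, and no p-value was computed.

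T-ALL arises from immature T cells of the thymus, and its lines carry different driver lesions. KOPT-K1 is known for an activating NOTCH1 mutation and for a rearrangement at the LMO2 gene. In ATAC-seq, the Tn5 transposase inserts adapters into accessible DNA, and a peak marks a promoter, enhancer or other element open to it. Elements close to promoters tend to be open in many cell types, while distal elements differ more between cells. Positions below are in build hg19, counted from 1. No hg19 annotation was used here, so regions are named by position and not by gene, and lineage marker genes were not checked.

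The KOPT-K1-only regions were 3.73% of all merged regions and 8.34% of the 17965 regions with a KOPT-K1 interval (exact binomial 95% interval 7.94% to 8.75%). Under the same rule DND-41 had 1428 regions, 3.56% of all merged regions and 8.04% of its own, and TALL-1 had 1490, or 3.71% and 9.12%. MOLT-4 had 1825 (4.55% and 9.62%), HBP-ALL 4654 (11.6% and 21.3%) and CCRF-CEM 6420 (16% and 28.9%). KOPT-K1 was therefore among 3 lines with nearly equal counts. The missed regions were 2.97% of the 9330 regions that all other 5 lines shared (2.63% to 3.33%). The corresponding absences numbered 221 in DND-41 (2.38%), 225 in MOLT-4 (2.43%), 296 in HBP-ALL (3.17%), 630 in TALL-1 (6.51%) and 971 in CCRF-CEM (9.69%). Without CCRF-CEM in the comparison KOPT-K1 missed 518 regions, and without TALL-1 449, since fewer lines then had to share a region. All intervals given here cover counting error only. Relative tag depth, set to 1 in CCRF-CEM, was 1.55 in KOPT-K1 and between 1.35 and 2.096 in the remaining 4 lines. CCRF-CEM and TALL-1, at the ends of the depth range, had the most absences; the part of depth in these counts was not tested.

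The KOPT-K1-only regions were narrow and low beside the rest of the KOPT-K1 list, as line-only regions were in the other lines. Their median width was 293 bp (quartiles 245 and 374.75 bp), against 507 bp for all KOPT-K1 intervals. Only 2.07% of them held several summits, against 15.0% of all KOPT-K1 intervals. Height is given as pileup, that is how many tags overlap the summit, recovered from the authors' fold enrichment and −log10 p. The median pileup was 13 (quartiles 10 and 17, range 8 to 69) over a median local background of 1.59 tags. Line-only regions of the other lines had median pileups of 12 to 14 and median widths of 281.5 to 320.5 bp. By −log10 p, 1032 of the 1498 regions (68.9%) stood in the weakest 25% of the KOPT-K1 list, and 3 stood above 90% of that list. KOPT-K1 pileups were higher the more lines shared the region. The median was 15 at the 1624 regions with 1 other line, just outside the rule, 17 with 2, 18 with 3, 22 with 4 and 36 with all 5. The quartiles of neighbouring classes overlapped.

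Missed regions were likewise at the weak end of the shared ones. Their merged width had a median of 623 bp (quartiles 530 and 767 bp). The pileups of the other lines there had medians of 17 in CCRF-CEM, 19 in MOLT-4, 20 in DND-41, 22 in HBP-ALL and 23 in TALL-1. At the 9053 regions with an interval in every line, in the same order, the medians were 31, 36, 40, 39 and 44. List rank, the percentile of an interval's −log10 p within its own list, had medians of 34.3% to 42.9% at missed regions and 70.2% to 74.7% at the regions of all lines. Among the regions that the other 5 lines shared, KOPT-K1 missed 40 of 145 (27.6%, 20.5% to 35.6%) where the median rank of those lines was up to 20%. It missed 67 of 585 (11.5%) between 30% and 40%, and 39 of 6257 (0.623%, 0.444% to 0.851%) above 60%. Thus most absences lay where the other lines were themselves low, and 13 of the 277 had ranks above 50% in every other line.

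**Figure D1:**
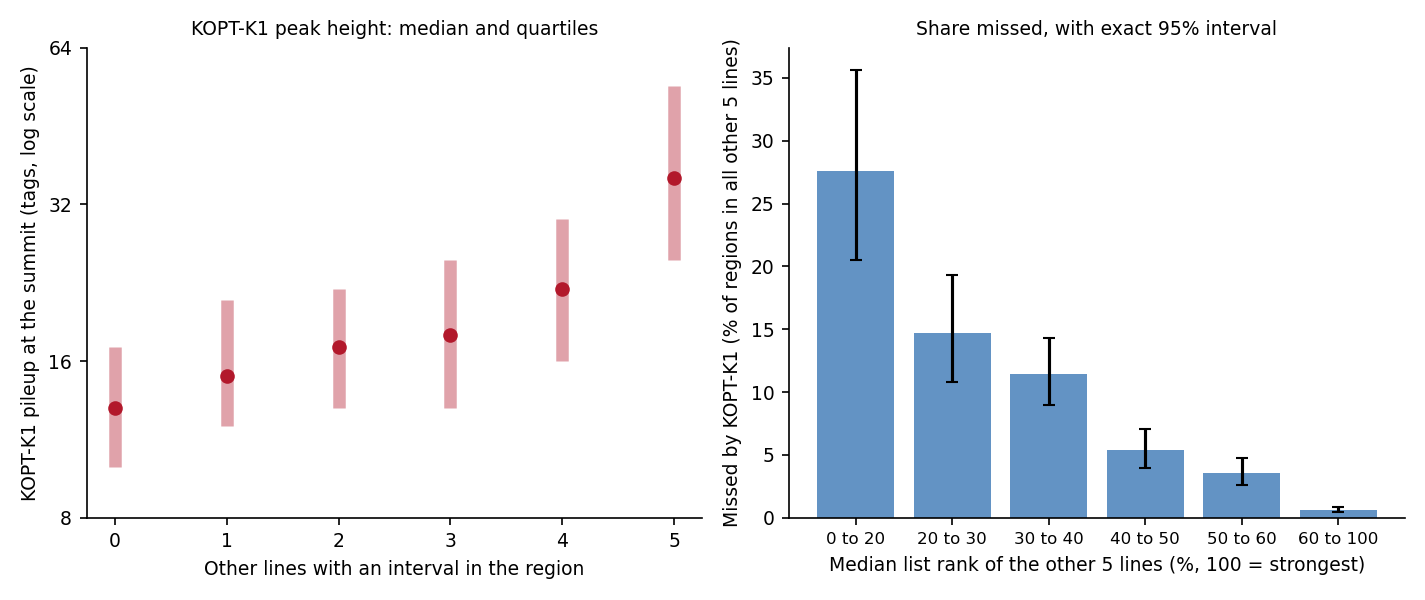
Left, KOPT-K1 pileup in tags (log axis; points are medians, bars quartiles) against the number of other lines with an interval, rising from 13 with none to 36 with all 5. Right, the share of regions held by all other 5 lines that KOPT-K1 missed, by median list rank of those lines (bars, with exact 95% intervals), falling from 27.6% to 0.623%.

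The spread of the other lines' summits at missed regions lay between those of 2 sets of regions open in every line. The largest difference between 5 summit positions had a median of 133 bp (quartiles 81 and 225 bp). It was 110 bp at the 9053 regions of all lines and 161 bp at the 1779 of these whose median rank lay between the quartiles of the missed regions. In 94 of the 277 missed regions (33.9%) all 5 summits lay within 100 bp, against 46.0% of the 9053 and 27.4% of the 1779. In the regions just outside the rule, with 4 of the 5 other lines and no KOPT-K1, medians of pileup were 17 to 20. Of those 729 regions 241 also lacked CCRF-CEM, 174 TALL-1, 111 MOLT-4, 104 HBP-ALL and 99 DND-41.

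By the merging rule no member overlaps a region open in every line, and few members lay within 1000 bp of one. Distances of other merged regions were not computed, so the values below do not show members to be unusually remote. The median distance from a KOPT-K1-only region to the nearest region open in every line was 96636.5 bp (quartiles 31874 and 278642 bp). Of the 1498, 20 (1.34%) lay within 1000 bp. In the other lines the median for line-only regions ran from 75424 bp in TALL-1 to 207915 bp in CCRF-CEM, so KOPT-K1 was second lowest. The nearest interval of any other line was at a median of 15563 bp, and 103 regions (6.88%) had one within 1000 bp. These intervals include those in the regions open in every line, so this distance could hardly be the longer one. Missed regions lay 55211 bp (quartiles 20209 and 164609 bp) from the nearest region of all lines. They lay 31028 bp from the nearest KOPT-K1 interval, where the same limit holds. Of the 277, 12 (4.33%) had a KOPT-K1 interval within 1000 bp, so a nearby call of KOPT-K1 accompanied few absences.

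**Figure D2:**
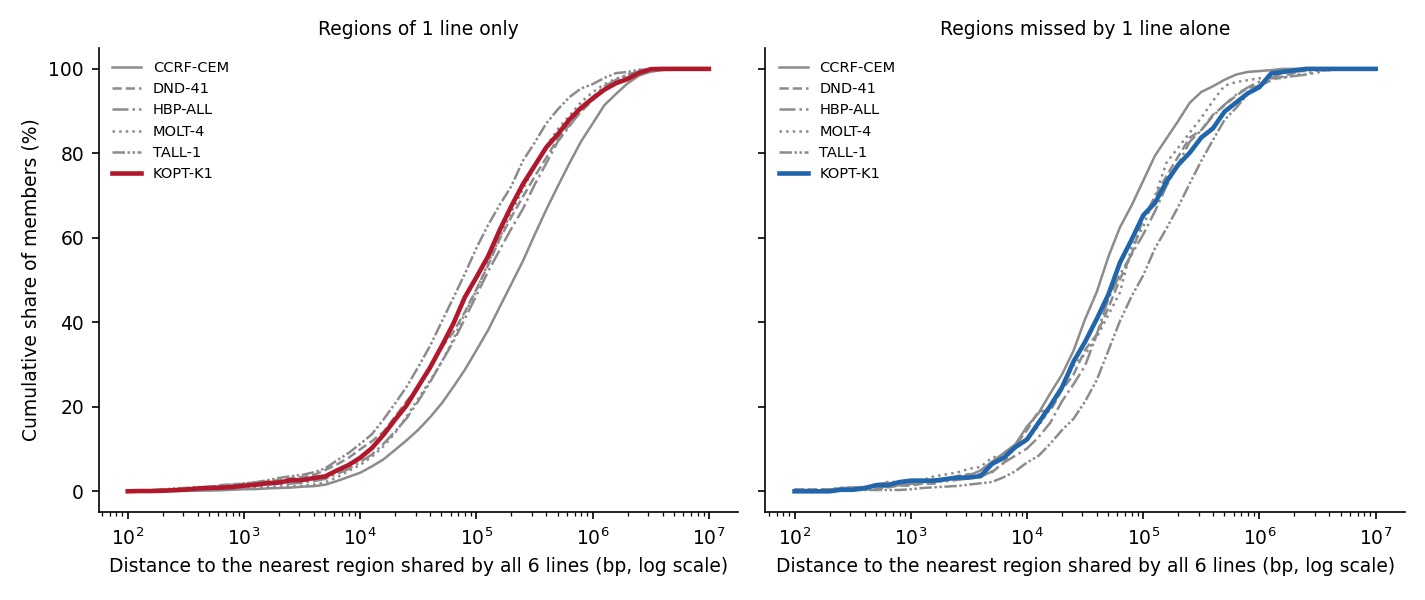
Cumulative share of members (percent) against the distance in bp (log axis) to the nearest region open in all 6 lines, for line-only regions (left) and regions missed by 1 line (right). The KOPT-K1 curves (coloured) run among those of the other lines (grey), with medians of 96636.5 bp and 55211 bp.

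KOPT-K1-only regions were a smaller share of merged regions where all-line regions, which count among the merged regions, were dense. Merged regions were split into 3 equal classes by the number of all-line regions within 500 kb on each side. KOPT-K1-only regions made up 4.28% of the sparsest class (3.94% to 4.64%), 3.99% of the middle one and 2.93% of the densest (2.65% to 3.23%). The fall was steeper in CCRF-CEM, from 26.2% to 8.27%, and TALL-1 went the other way, from 2.92% to 4.26%. Of the 13370 regions in each class, at least 1517, 3044 and 4484 were all-line regions, from sparsest to densest. These can never be line-only, so a fall follows from the denominator to an extent that was not computed. The shares thus do not show that KOPT-K1-only regions themselves are rarer in dense stretches. Missed shares of KOPT-K1 were 3.79%, 2.53% and 2.99% in the same order. Within 5 Mb of the outermost merged region of each chromosome lay 11.3% of the KOPT-K1-only regions and 10.5% of all merged regions. The same was true of 17.3% of the missed regions and of 13.01% of all regions that the other 5 lines shared.

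Of the 1498 KOPT-K1-only regions, 1216 (81.2%) had no other within 50 kb. Neighbours on a chromosome were a median of 918633 bp apart. There were 107 pairs and 21 groups of at least 3 regions with gaps up to 50 kb, against 11 such groups in MOLT-4, 19 in DND-41, 20 in TALL-1, 90 in HBP-ALL and 209 in CCRF-CEM. Chromosome 8 held 4 of the 21 groups and 8.14% of all KOPT-K1-only regions, and chromosome 7 held 3 groups and 6.94%. Such counts are too small to compare chromosomes. The 277 missed regions had a median gap of 4919065 bp, 8 pairs and no group of 3. Being fewer, they cannot be compared in spacing with the KOPT-K1-only regions. Without CCRF-CEM, with more regions missed, that gap was 1587090 bp.

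A group of 5 KOPT-K1-only regions lay on chromosome 8 from 134465695 to 134581376. Their pileups were 16, 27, 13, 21 and 45, in order of position. The last of these stood on a local background of 13.4 tags, the highest of any KOPT-K1-only region, and its −log10 p was 11.6. Of the 8 merged regions of this stretch 5 were the members, which by the rule held KOPT-K1 and no other line. With these counted, KOPT-K1 had an interval in 7 and the other lines in 1 or 2 each. A second group of 5 spanned chromosome 14 from 106851447 to 106974571, with pileups of 19, 16, 15, 13 and 11. Here KOPT-K1 had an interval in 11 of 12 regions, HBP-ALL in 6, DND-41 in 5, MOLT-4 in 4, TALL-1 in 2 and CCRF-CEM in 1. The 5 members are counted here too, so neither stretch shows an excess of KOPT-K1 at its other regions. In the group of 4 on chromosome 5, from 179989647 to 180046456, the members were the only merged regions. By the rule no other line then had an interval there, and pileups were 29, 15, 13 and 20.

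The remaining groups had 3 members each. Chromosome 1 carried one at 11397749 to 11444414 (pileups 12, 14 and 14) and one at 214461374 to 214502425 (9, 14 and 13). That on chromosome 4 at 113074421 to 113104828 (12, 13 and 22) also held a region of all 6 lines. In 7 of the 21 groups the members were the only merged regions, so by the rule KOPT-K1 was the one line with any interval. In 11 groups, these 7 among them, every merged region held KOPT-K1, as the members do by the rule. The tightest, named here after its values were seen, put 3 regions into 3.51 kb on chromosome 11 at 127921287 to 127924798, with pileups between 15 and 23.

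Of the 12 strongest KOPT-K1-only regions, 5 lay more than 25 kb from any interval of another line. The first was on chromosome 12 at 127256625 to 127257224. Its pileup was 69, its local background 4.44 tags, and the nearest region of all 6 lines was 1706207 bp away. The nearest interval of another line, of HBP-ALL, was 63345 bp away, and that of TALL-1 310757 bp. The second, on chromosome 4 at 84319203 to 84319716, had the highest fold enrichment of all KOPT-K1-only regions, 14.1, with a pileup of 53. HBP-ALL and DND-41 had intervals 8134 and 9475 bp from it, and the other lines none within 56589 bp. On chromosome 6 at 145693652 to 145694356 the pileup was 54, and the nearest other interval lay 117711 bp away. This was the most isolated of the 12 strongest.

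Next came a region on chromosome 8 at 98289913 to 98290490, with a pileup of 54, where CCRF-CEM had an interval 18085 bp away and the next nearest, of HBP-ALL, lay 175469 bp away. Chromosome 6 held the fifth and sixth, at 155324594 to 155325129 (pileup 43) and 74079273 to 74079754 (pileup 37). The other 6 of the 12 had pileups of 33 to 42. They lay on chromosome 14 at 94492523 to 94492929, on chromosome 5 at 130474191 to 130474533, 111069727 to 111070092 and 16556171 to 16556407, on chromosome 8 at 85595607 to 85596188 and on chromosome 10 at 4003362 to 4003569. Their surroundings differed. Each of the other 5 lines had an interval 6883 to 6976 bp from the region at 111069727, whereas on chromosome 10 DND-41 had one at 14874 bp and the remaining lines none within 175252 bp. At the other end 3 regions had a −log10 p of 5.00285, the lowest value in the KOPT-K1 list, with pileups of 10.

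The missed region with the highest ranks lay on chromosome 7 at 61970263 to 61970522. Its pileups were 1004 in TALL-1, 482 in MOLT-4, 759 in HBP-ALL, 693 in DND-41 and 414 in CCRF-CEM. Local backgrounds there were also high, from 96.5 to 234 tags, and a KOPT-K1 interval with a −log10 p of 1019 lay 502 bp away. All other named regions had pileups of at most 117. On chromosome 18 at 29264681 to 29265921, pileups were 69 in TALL-1, 39 in MOLT-4, 56 in HBP-ALL, 83 in DND-41 and 76 in CCRF-CEM. The nearest KOPT-K1 interval was 256732 bp away.

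CCRF-CEM was highest in a region on chromosome 3 at 97690656 to 97691570, with a pileup of 117, against 44 in DND-41, 56 in HBP-ALL, 44 in MOLT-4 and 38 in TALL-1. A second on that chromosome, at 102721251 to 102721799, had 79 in CCRF-CEM, then 50, 23, 28 and 37 in the same order of lines. It was the most isolated of the 12, with no KOPT-K1 interval within 1152432 bp, and another missed region lay beside it, both within 46.3 kb. On chromosome 21 at 16436743 to 16438397, pileups were 84 in TALL-1, 33 in MOLT-4, 51 in HBP-ALL, 54 in DND-41 and 52 in CCRF-CEM. This region was 1655 bp wide, and its nearest KOPT-K1 interval was 448079 bp away. On chromosome X at 21391864 to 21392974, pileups ran from 29 in CCRF-CEM to 69 in TALL-1, and KOPT-K1 had no interval within 464634 bp.

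The remaining 6 named absences lay 10972 to 41816 bp from a KOPT-K1 interval. A narrow region on chromosome 22 at 19132038 to 19132418 had its 5 summits within 43 bp and pileups of 19 to 49. The remaining ones were on chromosome 10 at 74091582 to 74092114 (42 to 85), on chromosome 11 at 58873856 to 58874854 (28 to 82), on chromosome 7 at 149570541 to 149571332 (29 to 69) and on chromosome 20 at 61903721 to 61904398 (19 to 40) and 44044558 to 44045126 (17 to 59). TALL-1, the deepest library, had the highest pileup in 8 of the 12. CCRF-CEM or MOLT-4, the shallowest, had the lowest in 9.

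**Figure D3:**
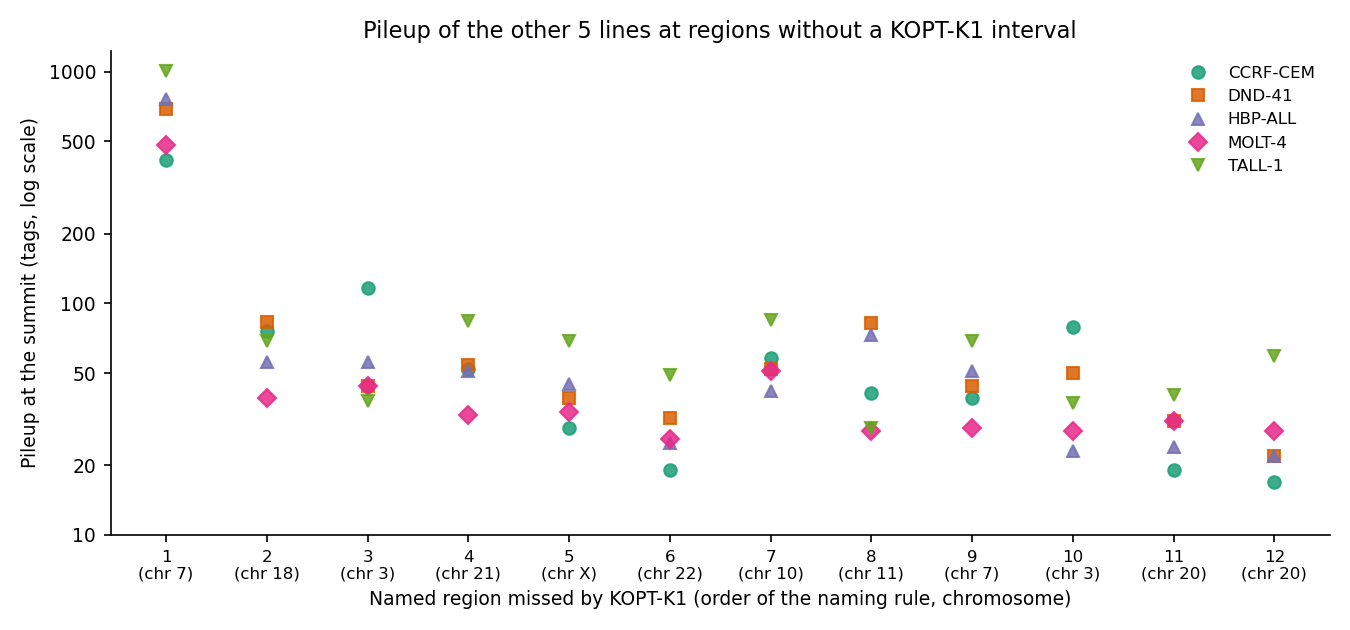
Pileup in tags (log axis) of the other 5 lines at the 12 named regions without a KOPT-K1 interval, in the order of the naming rule. The region on chromosome 7 stands at 414 to 1004 tags, and the other 11 lie between 17 and 117.

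Most absences among recurrent regions were single. Among 15651 recurrent regions, those with intervals of at least 3 other lines, 2516 (16.1%) lacked KOPT-K1. These fell into 1545 single absences, 306 runs of 2, 75 of 3, 17 of 4, 6 of 5 and 6 of 6. The runs of 6 spanned 58.5 to 2189 kb, and KOPT-K1 had an interval in 1 less widely shared region inside 3 of them, those on chromosomes 4, 6 and 8. They lay on chromosome 2 at 165697553 to 166060858, chromosome 3 at 102134353 to 103821712, chromosome 4 at 80449377 to 81281619, chromosome 6 at 123200010 to 125388587, chromosome 8 at 115089327 to 116660955 and chromosome 17 at 8093203 to 8151721. That on chromosome 3 held 3 missed regions, the most of the 6, among 13 merged regions with 4 to 8 intervals in each other line. The run on chromosome 17 spanned 58.5 kb, with intervals of MOLT-4 in 7 regions, TALL-1 in 6, HBP-ALL in 5, DND-41 in 3 and none in CCRF-CEM or KOPT-K1.

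Chromosomes differed in both kinds of member, and those rich in one tended to be poor in the other (Spearman correlation −0.53 over 23 chromosomes). KOPT-K1-only regions made up the largest share of merged regions on chromosome 8, 122 of 2059 (5.93%, 4.94% to 7.03%), followed by chromosomes 4 (5.37%) and 14 (5.102%). The lowest shares were on chromosomes 21 (4 of 506, 0.791%), 22 (4 of 494, 0.810%) and 19 (11 of 1204, 0.914%). KOPT-K1 missed 17 of 177 regions on chromosome 22 (9.60%, 5.70% to 14.9%), 9 of 99 on chromosome 21 (9.09%, 4.24% to 16.6%) and 14 of 236 on chromosome 20 (5.93%). It missed the smallest shares on chromosomes 12 (5 of 489, 1.02%), 9 (1.06%) and 1 (1.63%). Over all chromosomes these shares were 3.73% and 2.97%. With equal numbers of the strongest intervals in every line, 4 of 83 regions (4.82%) were missed on chromosome 21, against 2.18% over all chromosomes, so that value rests on few regions. Without CCRF-CEM the missed shares were 16.6% on chromosome 22, 15.8% on chromosome 21 and 4.91% over all chromosomes. Without HBP-ALL 15.5% were missed on chromosome 21, and without TALL-1 4.59% on chromosome 8. The latter was above the 4.43% over all chromosomes in that comparison, whereas with TALL-1 chromosome 8 was below, at 2.16% against 2.97%. The KOPT-K1-only share on chromosome 8 was 9.09% without CCRF-CEM. On chromosome 21 it was 1.65% without TALL-1, 1.49% without MOLT-4 and 1.32% without HBP-ALL, and on chromosome 22 it was 1.37% without HBP-ALL, 1.30% without MOLT-4 and 1.24% without DND-41. Each of these stayed below the 4.35% to 5.39% over all chromosomes in the same comparisons, except on chromosome 8, where the share stayed above.

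The heights of KOPT-K1 peaks at regions open in every line differed between chromosomes in a similar order. Chromosome 14 was an exception, with a median of −0.05 in the measure below. The rule did not use these heights, but the calls it used depend on pileup over background in the same library. Heights are therefore not a measure separate from the calls. Relative pileup is the log2 of the KOPT-K1 pileup minus the mean log2 of the other 5 lines, centred on its median over 9045 regions. Its median was 0.40 on chromosome 8 (interval of the median 0.36 to 0.44, over 363 regions), −0.83 on chromosome 21 (−0.94 to −0.73, 89 regions) and −0.53 on chromosome 22 (−0.60 to −0.47, 160 regions). On chromosome 21, 32 of 89 regions (36.0%) had a relative pileup of −1 or below, against 1.99% of all 9045. On chromosome 8, 13 of 363 (3.58%) had one of 1 or above, against 0.94% of all. Across 23 chromosomes the Spearman correlation of relative pileup was 0.91 with the share of KOPT-K1-only regions and −0.61 with the missed share. The chromosomes share 1 library, so no p is given. Without chromosomes 21 and 22 the correlations were 0.88 and −0.48, and with each other line left out in turn 0.86 to 0.90 and −0.72 to −0.51. The same 2 correlations in the other lines ran from 0.24 in HBP-ALL to 0.93 in CCRF-CEM and from −0.85 in MOLT-4 to −0.43 in CCRF-CEM, so such an order was not confined to KOPT-K1.

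**Figure D4:**
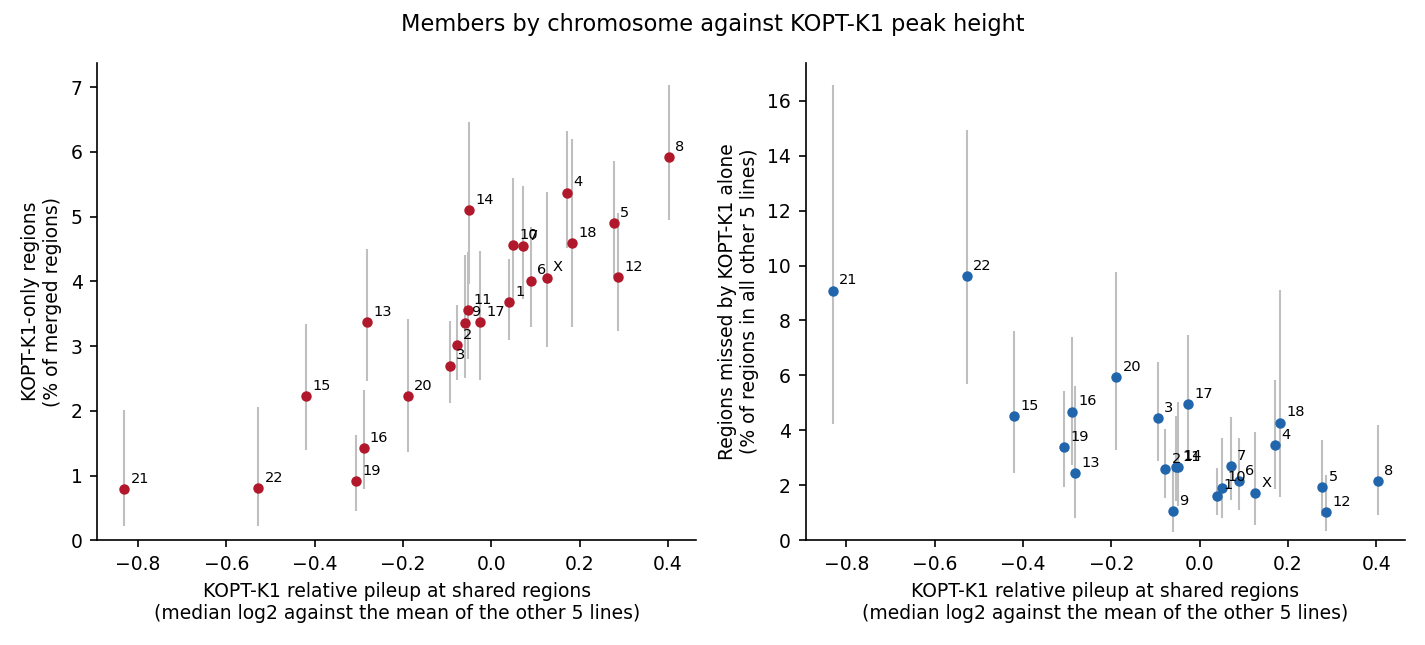
Each point is a chromosome, with the median relative pileup of KOPT-K1 at regions open in all 6 lines (log2) on the horizontal axis. The vertical axes give the share of KOPT-K1-only regions (left) and of missed regions (right) in percent, with exact 95% intervals; chromosome 8 stands at 5.93% and 2.16%, chromosome 21 at 0.791% and 9.09%.

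Single lines were then compared with KOPT-K1. On chromosome 8 the centred log2 ratio of KOPT-K1 was positive against each line, 0.24 to CCRF-CEM, 0.39 to DND-41, 0.48 to HBP-ALL, 0.36 to MOLT-4 and 0.47 to TALL-1. On chromosome 21 it was negative against each, from −0.39 to CCRF-CEM to −1.73 to TALL-1, and leaving out TALL-1 moved the chromosome 21 median to −0.65. On chromosome 22 it was −0.07 to CCRF-CEM and −0.34 to −0.82 to the others. On chromosome 19 its sign differed, 0.45 to CCRF-CEM and −0.14 to −0.73 to the rest. Local background moved with the pileup, with medians of 0.41 on chromosome 8, −0.86 on chromosome 21 and −0.44 on chromosome 22. Fold enrichment, which divides the pileup by the background after adding 1 to each, differed less, by 0.058, −0.13 and −0.15.

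Of 19 chromosomes divided by a stretch of over 3 Mb without regions, 3 had shares of KOPT-K1-only regions whose intervals did not overlap between the sides. They were chromosomes 1 (2.73% and 4.69%), 9 and 12. On chromosome 12, KOPT-K1-only regions were 7 of 471 (1.49%, 0.600% to 3.04%) below the widest stretch without regions, which ended at 38127679, and 70 of 1420 (4.93%, 3.86% to 6.19%) above it. Relative pileups there were 0.08 and 0.37. On chromosome 9 the shares were 6.10% below the gap ending at 66457983 and 2.14% above it, with relative pileups of 0.16 and −0.13. In windows of 10 Mb with at least 50 merged and 15 all-line regions, the highest share was on chromosome 8 between 130 and 140 Mb, 18 of 150 (12.0%, 7.27% to 18.3%), where relative pileup was 0.68. This window was picked as the highest of 242, which its interval does not allow for. It holds the group of 5 members starting at 134465695. On chromosome 21 between 40 and 50 Mb none of 144 regions was KOPT-K1-only, which allows a share of up to 2.53%, and relative pileup was −1.13. In all, 9 windows had no KOPT-K1-only region, and relative pileup was not low in all of them. On chromosome 12 between 0 and 10 Mb it was 0.10, with none of 151 regions KOPT-K1-only. Conversely, the share was 8.93% on chromosome 20 between 20 and 30 Mb, at a relative pileup of −0.11. Over the 242 windows the Spearman correlation was 0.58.

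Near its members KOPT-K1 also differed at regions that belonged to neither kind. Of the 11122 regions with intervals of 2 to 4 lines, 45.6% held KOPT-K1. This share was 62.4% (56.3% to 68.2%, 266 regions) within 10 kb of a KOPT-K1-only region and 41.8% (40.7% to 42.9%) at 200 kb or more. Around missed regions it was lower, 30.6% (19.6% to 43.7%, 62 regions) within 10 kb and 46.3% at 200 kb or more. Each other line showed the same order around its own line-only regions, such as 59.5% and 40.2% in DND-41 and 48.5% and 30.2% in TALL-1. Around the regions it alone missed, each was also lower nearby, such as 20.7% and 44.3% in DND-41. Relative pileup at all-line regions within 10 kb of a member was 0.11 (−0.02 to 0.19) for KOPT-K1-only regions and −0.19 (−0.36 to −0.09) for missed ones. Beyond 200 kb it was −0.03 and 0.01.

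**Figure D5:**
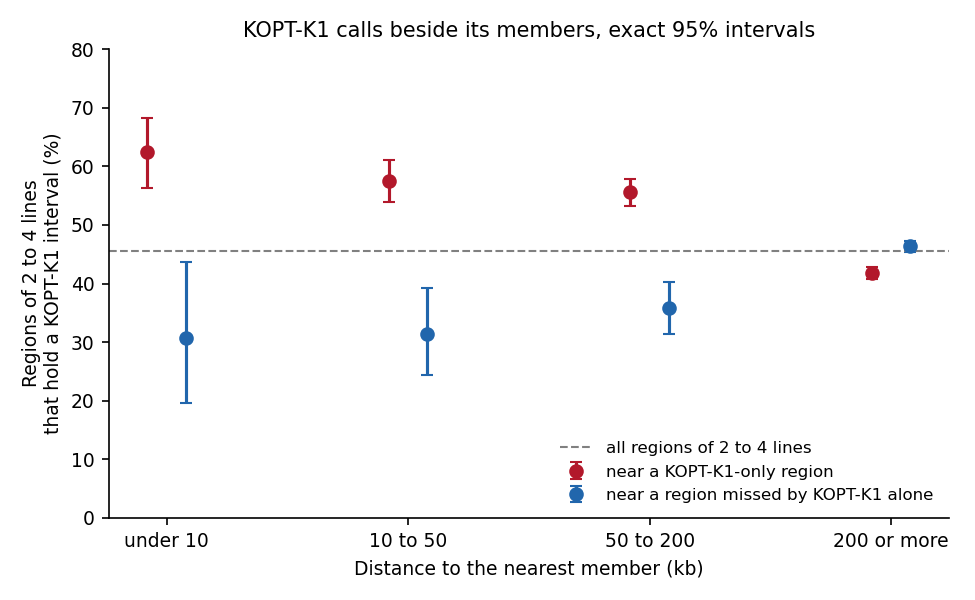
Share of regions with intervals of 2 to 4 lines that hold a KOPT-K1 interval (percent, points with exact 95% intervals) by distance in kb to the nearest member. Near KOPT-K1-only regions it falls from 62.4% to 41.8% with distance, and near missed regions it rises from 30.6% to 46.3%; the dashed line marks 45.6% over all.

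Among the regions just outside the rule, KOPT-K1 shared an interval with 1 other line most often with DND-41 (406 of 1624, 25%) and MOLT-4 (392, 24.1%). HBP-ALL followed with 331, CCRF-CEM with 317 and TALL-1 with 178 (10.96%). KOPT-K1 pileups at these pairs had medians of 14 to 16, close to the 13 of regions it held alone.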

How the data were processed

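Peak lists of 6 ATAC-seq libraries, 1 per T-ALL line, were analysed. The authors called peaks per library; per the submitters' processing notes, the build was hg19 and the tools included MACS2 2.1.1.2016030, SAMtools, Picard and Bowtie2, with settings, filters and any Tn5 shift not given in the sources used here. Each line of the deposited lists gives a score, a fold enrichment over local background (a linear ratio), and −log10 values of p and q (p-value and q-value). Read totals are not known here.

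Intervals on chromosomes 1 to 22 and X were merged as the rule states. Summit pileups were recovered as the whole tag count matching the authors' fold and Poisson −log10 p within 0.001, assuming that the fold adds 1 to pileup and background, for over 99.9% of intervals (KOPT-K1: 3 not recovered). Relative depth is the lowest recovered background over the smallest interval width. Intervals of shares are exact (Clopper-Pearson) and those of medians use order statistics, both at 95%. Named regions follow a rule: the 12 KOPT-K1-only regions with the highest −log10 p, the 12 missed regions with the highest lowest rank, the first 6 groups, the longest runs (6 tied) and the 3 highest and lowest chromosomes. Members, lists and rules were chosen with earlier results of these data known. On simulated data 100% of 19970 pileups and all planted members were found. The simulation used the same formulas and well separated regions, so it checks the code only. It cannot check the assumption on the fold or the merging of closely spaced intervals. Software was matplotlib 3.10.9, scipy 1.17.1, pandas 2.3.3, numpy 2.4.6 and Python 3.11.15.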

Additional observations from a re-analysis of the deposited data

Results flagged for a closer look

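The 6 libraries were compared in 30 measures by the gap between the farthest line and its neighbour. The median distance of line-only regions to the nearest region open in every line stood apart in CCRF-CEM, at 207915 bp, and no measure set KOPT-K1 apart. Chance flags about 1 in 20 such groups. Outside chromosomes 1 to 22 and X the KOPT-K1 list held 53 intervals, of which 6 were mitochondrial; these were not compared.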

How the results depend on the processing

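Of 143 recomputed values 99 stayed within 1.5 times the reported count or within its interval, and 44 moved. Among the relative heights on chromosomes 8, 21 and 22, the only values that can be negative, none changed sign. With a −log10 p of at least 7, median widths were 307 bp (KOPT-K1-only) and 674 bp (missed) and median gaps 1203741.5 and 3894863 bp; with at least 10, 879 KOPT-K1-only regions were left. Equal numbers of the strongest intervals left 174 missed regions, with distances to regions of all lines of 112712 bp (KOPT-K1-only) and 77454 bp (missed), widths of 307 and 655 bp and gaps of 1045480.5 and 9617979 bp. Allowing 1 line more gave 3122 and 1006 regions. Fold enrichment in place of pileup gave 0.058, −0.13 and −0.15 on chromosomes 8, 21 and 22. The cause was not tested.

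Leaving out each other line in turn, where fewer lines make both rules easier to meet, gave 1681 to 1911 KOPT-K1-only and 377 to 518 missed regions (518 without CCRF-CEM, 449 without TALL-1). Medians for KOPT-K1-only regions were 78391 to 99304 bp in distance, 295 to 301 bp in width and 690469.5 to 819442.5 bp in gap. For missed regions they were 40431 to 65550 bp, 576 to 608 bp and 1587090 to 4226691.5 bp, the shortest gap without CCRF-CEM. KOPT-K1-only shares were 6.97% to 9.09% on chromosome 8 (highest without CCRF-CEM), 0.837% to 1.65% on chromosome 21 (highest without TALL-1) and 0.846% to 1.37% on chromosome 22. Missed shares were 2.09% to 4.59% on chromosome 8 (highest without TALL-1), 8.82% to 15.8% on chromosome 21 and 9.55% to 16.6% on chromosome 22. Relative pileups were 0.38 to 0.44, −0.94 to −0.65 and −0.64 to −0.48 on chromosomes 8, 21 and 22. Except for the member counts, leaving out lines was chosen after seeing the data, as were the comparisons with single lines. No paired analysis was possible because each line has 1 library.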
